A study of Mus musculus with 12 samples.

Results

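The heat shock chaperones described here are 10 genes chosen by name, Hspa1a, Hspa1b, Hspa5, Hspa8, Hsp90aa1, Hsph1, Dnajb1, Hspd1, Hspe1 and Hspb1, out of 30101 names on a mouse expression array. Of these 10 genes, 9 had a probe of their own name, with 14 probes in all, and the 9 are among the 18643 genes tested. Hspa1b had no probe of its own name, but the array files annotate the Hspa1a probe to RefSeq transcripts of both genes, so its values stand for Hspa1a and Hspa1b together. Where a gene had several probes, the brightest one represented it.

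The RNA came from mouse CD4+ T cells studied in experimental autoimmune encephalomyelitis (EAE), an inflammatory disease of the central nervous system (CNS), and each of 12 samples was hybridised to its own 1-colour array, 3 per group. Naive CD4+ T cells came from the spleen of B6.2d2 mice, which carry a transgenic T cell receptor specific for myelin oligodendrocyte glycoprotein (MOG). Cultured Th17 cells were made from B6.2d2 naive cells in vitro. The transferred cells were such cultured Th17 cells that had been injected into lymphopenic Rag1-/- mice, whose own T and B cells do not mature, and then recovered from the CNS when EAE was at its peak. The immunised group consisted of CNS CD4+ T cells of wild-type C57BL/6 mice that had received the MOG peptide of residues 35 to 55 and sampled at the same stage. The 2 CNS groups thus differ in T cell receptor, host and way of inducing disease at once. Age, the number of animals per sample, pooling and the purity of the isolated cells are not given in the sources used here. Replicates came from 3 independent experiments according to the series text, and 3 arrays per group limit the precision of every value.

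Chaperones bind unfolded proteins and help them fold. HSP70 proteins do this with J-domain partners such as Dnajb1, which deliver substrates and stimulate the ATPase, and with nucleotide exchange factors such as Hsph1, while HSP90 acts later on partly folded clients such as kinases and receptors. Hspa8 and Hsp90aa1 supply the cytosol, Hspa5 (BiP) the endoplasmic reticulum (ER), and Hspd1 and Hspe1 form the folding chamber of mitochondria. Under heat and other protein-damaging stress, heat shock factor 1 binds repeated GAA units in the promoters of the stress-inducible members. Hspa1a, Hspa1b, Hspb1 and Hsp90aa1 are examples of these, whereas Hspa5 answers to unfolded protein in the ER.

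The promoters are shown as background, and no link between their motifs and the levels was tested. RefSeq promoters (build GRCm38.p6) were given for 8 of the 10 genes, 11 transcript starts in all, and the 250 bases before each start were searched on both strands. A pair of heat shock units was defined as GAANNTTC or TTCNNGAA, which can overlap each other, and 12.84% of all 32851 promoters of the same length held it, 1.455% more than once. It was found in 6 of the 8 genes, among them Hspd1, Hspe1 and Hsph1, which were called in no comparison. The ER stress element, CCAAT and CCACG with 9 bases between them, was held by 0.1126% of promoters and always contains a CCAAT box, which 33.85% held. In the Hspa1a and Hspa1b promoters the pair starts 104 bases before the transcript start. These 2 windows are alike at 247 of 250 bases (98.8%). Hspb1 has 2 pairs, at 117 and 97 bases, and Hspe1 has 3 that overlap, at 89, 84 and 79 bases. The same DNA read on the other strand holds the 3 pairs of the facing gene Hspd1, whose window from the nearer start shares 215 bases with that of Hspe1. In the following windows capitals mark the heat shock unit pairs and, in Hspa5, the ER stress element at 65 bases.
Hspa1a (chr17:34972157-34972406, minus strand): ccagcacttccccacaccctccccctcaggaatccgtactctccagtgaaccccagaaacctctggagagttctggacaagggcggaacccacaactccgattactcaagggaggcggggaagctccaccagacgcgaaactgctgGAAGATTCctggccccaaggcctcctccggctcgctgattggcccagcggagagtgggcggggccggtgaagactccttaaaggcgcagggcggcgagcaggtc
Hspa1b (chr17:34959239-34959488, minus strand): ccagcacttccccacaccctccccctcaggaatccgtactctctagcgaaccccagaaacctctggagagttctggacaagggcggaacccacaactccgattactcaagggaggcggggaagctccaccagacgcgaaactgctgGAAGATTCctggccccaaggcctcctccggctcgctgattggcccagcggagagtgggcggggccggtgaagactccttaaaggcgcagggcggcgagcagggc
Hspb1 (chr5:135887669-135887918, plus strand): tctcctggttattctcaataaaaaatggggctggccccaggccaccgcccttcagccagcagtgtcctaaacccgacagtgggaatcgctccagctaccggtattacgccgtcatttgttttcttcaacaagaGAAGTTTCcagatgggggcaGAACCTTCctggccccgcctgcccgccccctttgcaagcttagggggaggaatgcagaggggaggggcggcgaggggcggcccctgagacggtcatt
Hspe1 (chr1:55087898-55088147, plus strand): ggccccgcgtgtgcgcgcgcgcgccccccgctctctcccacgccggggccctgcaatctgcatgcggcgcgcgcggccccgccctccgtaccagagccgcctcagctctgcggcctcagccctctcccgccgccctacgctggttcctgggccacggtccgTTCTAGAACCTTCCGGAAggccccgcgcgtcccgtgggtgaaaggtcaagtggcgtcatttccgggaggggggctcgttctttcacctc
Hspa5 (chr2:34771840-34772089, plus strand): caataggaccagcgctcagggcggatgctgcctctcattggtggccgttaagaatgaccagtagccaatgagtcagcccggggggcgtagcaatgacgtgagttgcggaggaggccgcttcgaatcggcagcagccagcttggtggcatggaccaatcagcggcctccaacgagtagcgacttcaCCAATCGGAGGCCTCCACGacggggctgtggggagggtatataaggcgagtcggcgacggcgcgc
Hsph1 held 1 pair, 54 bases before one of its starts. The windows of the 2 Dnajb1 starts held none of these letters in this spacing. The Hspa5 window held 4 CCAAT boxes, 1 of them within the ER stress element.

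Levels are log2 processed signals minus the 75th percentile of the same array, so 0 is the level of that percentile. They compare 1 gene across arrays and not different genes with each other. A gene was called where the adjusted p of a limma model over all 12 arrays and all 18643 genes was under 0.05. On any array, 57.0% to 64.9% of probes were well above background. In bulk RNA, fewer cells of a type and less RNA per cell cannot be told apart. Array position on the slide was the same for all arrays of a group, so position and group cannot be told apart either.

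The isolated cells carried RNA of T cells in all groups. None of 8 T cell core genes was below background on all arrays of any group. Their summed linear level, however, was 432 to 514 in naive and 462 to 490 in cultured cells against 194 to 285 in transferred cells and 288 to 429 in the immunised group. Markers of macrophages and monocytes moved the other way. Their summed level over 16 genes was 24.6 to 98.4 in naive cells, 22.3 to 37.0 in culture, 662 to 1011 in transferred cells and 498 to 1141 in the immunised group. In the CNS groups all 16 were detected, while markers including Adgre1, Fcgr1, C1qc, Ms4a7 and Mrc1 were below background on all naive arrays and C1qa and C1qc on all culture arrays. The part of other cells in the differences between CNS and other samples was not tested.

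**Figure D1:**
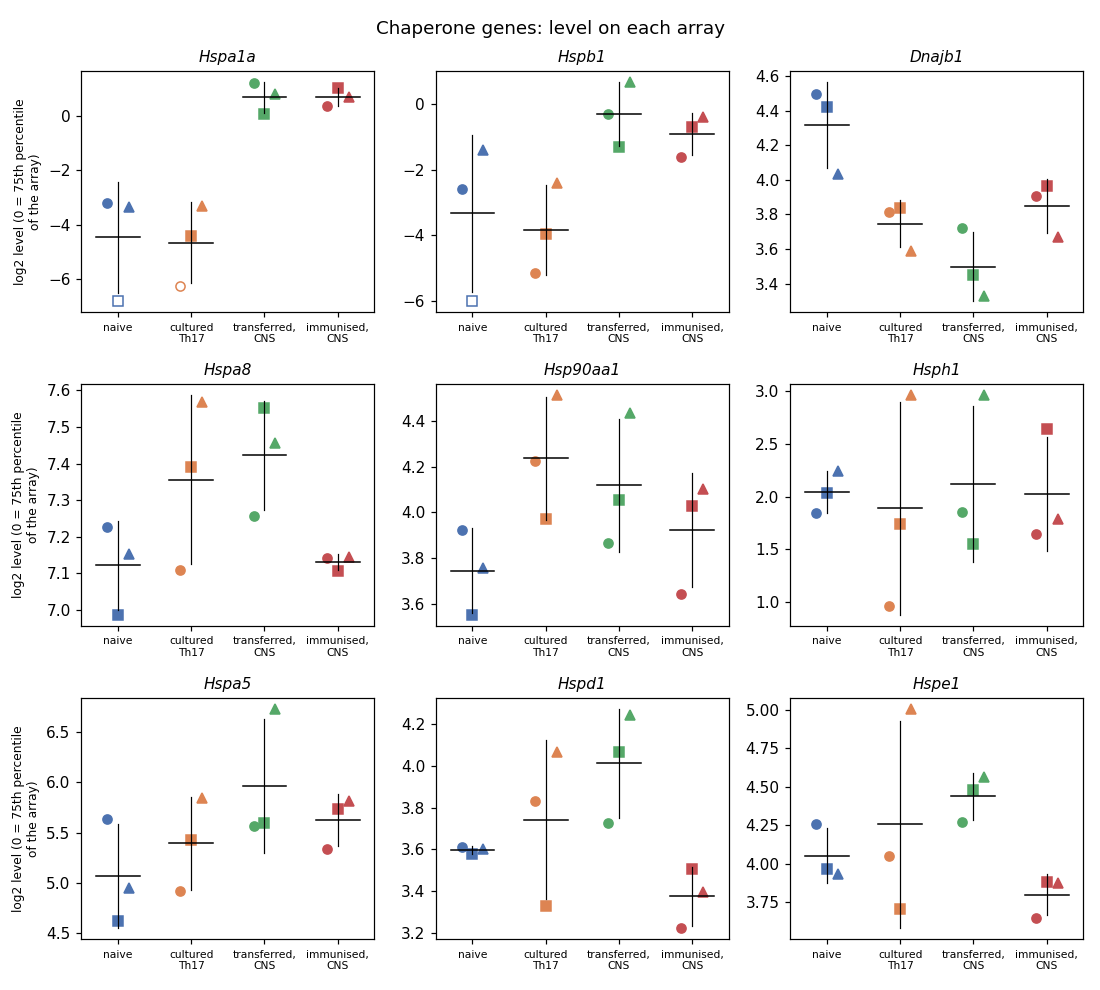
Log2 level of each chaperone gene (0 is the 75th percentile of the array) on the 12 arrays by group, with circles, squares and triangles for replicates 1, 2 and 3, open symbols for arrays not well above background, a horizontal line at the mean and a vertical line of ±1 SD. All 6 CNS arrays lie above all 6 others for Hspa1a, whereas the groups overlap widely for Hsph1.

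The inducible HSP70 genes gave the largest difference of the 9 tested members. The Hspa1a probe, which both Hspa1a and Hspa1b transcripts match, lies in mm9 at chr17:35107117-35107176 on the minus strand and has the sequence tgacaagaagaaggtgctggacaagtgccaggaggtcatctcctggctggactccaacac. Its level on naive replicates 1, 2 and 3 was −3.20, −6.80 and −3.34. In cultured Th17 cells it was −6.26, −4.40 and −3.30. In transferred cells it was 1.20, 0.08 and 0.79, and in the immunised group 0.37, 1.04 and 0.70. Naive replicate 2 and culture replicate 1 were not well above background, and every CNS array was above every array of the other groups.

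The Hspa1a probe was 5.34 ± 0.94 log2 higher in transferred than in cultured cells (SE of the limma fit, adjusted p = 0.00213), with 4.09 to 7.46 within the 3 slides. This is a 40.5-fold ratio, or 37.8-fold with the dim array raised to its lowest level well above background. The probe passed the filter on dim probes only through the CNS groups, where it was high. With no such filter the adjusted p of this limma comparison was 0.00396. Against naive cells it rose by 5.14 log2 in transferred cells (adjusted p = 0.00127) and by 5.15 in the immunised group (adjusted p = 0.00127), and it was 5.35 higher in the immunised group than in culture (adjusted p = 0.00183). Transferred cells and the immunised group had means of 0.69 ± 0.57 and 0.70 ± 0.34 (SD, n = 3), a difference of 0.01 with a 95% interval from −2.07 to 2.09. Naive and cultured cells, at −4.45 ± 2.04 and −4.65 ± 1.50 (SD, n = 3), also overlapped. The order was therefore both CNS groups above both others, with no neighbours told apart inside either pair. The calls held under all 22 alternatives that kept the gene, but the size did not. The normexp background correction, which raises low signals, gave 3.72 against culture and 3.48 against naive cells for the transferred group, and 3.70 and 3.47 for the immunised group. Without culture replicate 1 the values against culture were 4.54 and 4.55, and without culture replicate 3 they were 6.02 and 6.03. Without naive replicate 2 the values against naive cells were 3.96 and 3.97, and without naive replicate 1 they were 5.76 and 5.78.

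Immediate early genes, which are transcribed quickly after many kinds of stimulus, also differed between culture and the CNS groups. Of 15 tested genes of this list, 11 rose and 0 fell in transferred against cultured cells, with a median of 3.21, where 12.8% of all genes were higher and 15.5% lower. At an unadjusted limma p under 0.05 it was 13 and 0, where 17.1% of all genes were higher and 22.7% lower. The largest rises were those of the AP-1 subunit genes Fosb (8.04) and Fos (7.42) and of the stress-responsive factor gene Atf3 (5.46). In culture against naive cells 2 rose and 4 fell, where 19.7% of all genes were higher and 20.4% lower. The 2 rises were those of Ier3 and of Atf3, by 5.15 with 1 naive array well above background, while Fos fell by 3.86 log2. Against naive cells 11 rose and 0 fell in transferred cells, where 21.2% of all genes were higher and 26.5% lower. In the immunised group 11 rose and 0 fell against naive cells (20.6% and 27.8% of all genes). Against culture 13 rose and 0 fell in the immunised group (13.7% and 17.8% of all genes). The summed level of the list was 486, 441 and 649 on the transferred arrays and 462, 505 and 522 on those of the immunised group. It was 441, 77.7 and 141 on naive replicates 1, 2 and 3, and 103, 144 and 103 in culture. Naive replicate 1 thus reached the sum of a CNS array, while its Hspa1a level of −3.20 stayed below all 6 CNS arrays. Naive replicate 2 had the lowest sum of the 12, and its Hspa1a signal was not well above background. Whether the Hspa1a difference is linked to that of the immediate early genes was not tested.

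**Figure D2:**
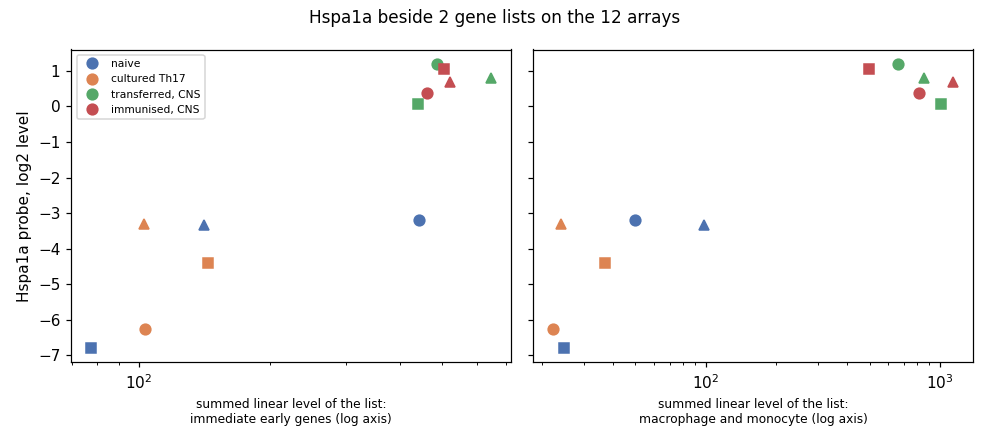
Log2 level of the Hspa1a probe (vertical axis) against the summed linear level of the immediate early genes (left) and of the macrophage and monocyte markers (right, both on log axes) on each of the 12 arrays, coloured by group, with circles, squares and triangles for replicates 1, 2 and 3. On the left, naive replicate 1 has a sum of 441 as high as a CNS array with Hspa1a at −3.20, and on the right the CNS arrays lie apart from the other 6 on both axes.

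Hspb1 encodes a small heat shock protein that holds unfolded proteins without using ATP. Its probe lies in mm9 at chr5:136365366-136365425 on the plus strand. Levels were −2.58, −6.00 and −1.39 in naive cells, −5.14, −3.96 and −2.41 in culture, −0.28, −1.29 and 0.68 in transferred cells and −1.62, −0.70 and −0.39 in the immunised group. Transferred cells lay above all naive and cultured arrays, and naive replicate 2 was not well above background. The rise from culture to transferred cells was 3.54 ± 1.08 log2 (SE, adjusted p = 0.0319), an 11.6-fold ratio with 2.67 to 4.85 within slides. Against naive cells it was 3.03 ± 1.08 (adjusted p = 0.0392), or 2.96 with the dim array raised.

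Both Hspb1 calls rested on few arrays. The call against culture was lost without culture replicate 1 (2.89, adjusted p = 0.105), culture replicate 2 (3.48, adjusted p = 0.0716), transfer replicate 1 (3.53, adjusted p = 0.0707) or transfer replicate 3 (3.05, adjusted p = 0.11). It was also lost with no filter on dim probes (adjusted p = 0.0524). It held without culture replicate 3, at 4.25, and with the normexp correction, at 2.56. The call against naive cells was lost without naive replicate 1 (3.40, adjusted p = 0.0508), naive replicate 2 (1.68, adjusted p = 0.122), transfer replicate 1 (3.02, adjusted p = 0.0809) or transfer replicate 3 (2.53, adjusted p = 0.127). With the value unchanged, leaving out culture replicate 2 (adjusted p = 0.0505), immunised replicate 2 (adjusted p = 0.0526) or immunised replicate 3 (adjusted p = 0.0502) also ended it. So did dropping the filter on dim probes (adjusted p = 0.0611) or fitting only the compared arrays (adjusted p = 0.0787). It held without naive replicate 3, at 3.99, and with the normexp correction, at 2.08. The immunised group differed by 2.42 ± 1.08 from naive cells (adjusted p = 0.0858), with overlapping arrays, and by 2.94 ± 1.08 from culture (adjusted p = 0.0611), without overlap. The difference from naive cells was called with the slide as a block (adjusted p = 0.0395) and without naive replicate 3, at 3.39 (adjusted p = 0.0283), and within slides it was 0.96 to 5.30. The difference from culture was called with the slide as a block (adjusted p = 0.0283), with the normexp correction (2.05, adjusted p = 0.0351), under median scaling (2.86, adjusted p = 0.0463) and with only the compared arrays (adjusted p = 0.0286). It was also called without naive replicate 2 (adjusted p = 0.0135), naive replicate 3 (adjusted p = 0.0416) or culture replicate 3 (3.65, adjusted p = 0.0404), and within slides it was 2.02 to 3.52. Between the CNS groups the difference was −0.60, with a 95% interval from −2.99 to 1.78. By mean level the order was transferred, immunised, naive and cultured, and neighbours in it overlapped.

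Dnajb1, the J-domain partner that directs HSP70 to substrates, was highest in naive cells. Levels were 4.50, 4.42 and 4.03 there, 3.81, 3.84 and 3.59 in culture, 3.72, 3.45 and 3.33 in transferred cells and 3.91, 3.96 and 3.67 in the immunised group (mm9 chr8:86135660-86135719, plus strand). Each naive array was above each array of the other 3 groups. Dnajb1 fell by 0.82 log2 in transferred against naive cells (SE 0.18, adjusted p = 0.0037), a 1.76-fold ratio. This call held under all 23 alternatives at an adjusted p under 0.05, but the ratio did not reach the 2-fold minimum of a stricter alternative. In culture it fell by 0.57 log2 (SE 0.18, adjusted p = 0.0279). That call was lost without naive replicate 1 (−0.48, adjusted p = 0.0874), naive replicate 2 (−0.52, adjusted p = 0.0841) or culture replicate 3 (−0.49, adjusted p = 0.067), and under median scaling (−0.46, adjusted p = 0.187), with no filter on dim probes (adjusted p = 0.0509) and with only the compared arrays (adjusted p = 0.0855). The immunised group differed from naive cells by −0.47 ± 0.18 (adjusted p = 0.0517). Within slides this was −0.59 to −0.36, and with the slide as a block it was called (adjusted p = 0.0267). It was also called with the normexp correction (adjusted p = 0.0455), quantile normalization (−0.71, adjusted p = 0.0169), the deposited value table (−0.71, adjusted p = 0.0168), a trended robust prior (adjusted p = 0.0392) and probes above background on all arrays (adjusted p = 0.0476). Quantile normalization and the deposited table gave nearly the same values and do not count as separate support. The same held without naive replicate 3 (−0.61, adjusted p = 0.0261), culture replicate 3 (adjusted p = 0.0409) or transfer replicate 1 (adjusted p = 0.0485). The order was naive, immunised, cultured and transferred, and the last 3 overlapped between neighbours. The Hspa1a probe and Dnajb1 thus lay in opposite order between naive cells and the CNS groups.

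Hspa8, the constitutive cytosolic HSP70, is read by 3 probes that disagreed. The brightest one (mm9 chr9:40613223-40613282) gave 7.23, 6.99 and 7.15 in naive cells, 7.11, 7.39 and 7.57 in culture, 7.26, 7.55 and 7.46 in transferred cells and 7.14, 7.11 and 7.15 in the immunised group. These values spanned less than 1 log2 and no comparison was called. The middle probe (chr9:40612755-40613050, plus strand, where its 60 bases span 296) was higher than in naive cells by 0.46 in culture (adjusted p = 0.0283), 0.66 in transferred cells (adjusted p = 0.00355) and 0.48 in the immunised group (adjusted p = 0.0193). The dimmest probe (chr9:40611142-40611201) was called for the immunised group against naive cells alone, at 0.57 (adjusted p = 0.0332). Over the 12 arrays the brightest and the dimmest probe correlated at −0.05, the brightest and the middle one at 0.66 and the other pair at 0.49. Which parts of the Hspa8 transcripts the probes read was not analysed here.

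**Figure D3:**
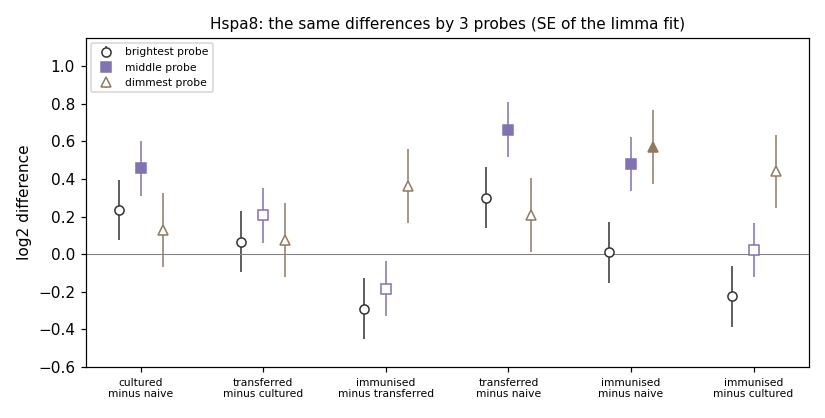
Log2 difference between groups (vertical axis) for 3 Hspa8 probes in the 6 comparisons (horizontal axis), with the SE of the limma fit as bars and filled symbols where the adjusted p was under 0.05. The middle probe was called in all 3 comparisons with naive cells, and the dimmest and brightest probes differ in sign between immunised and transferred cells, at 0.36 and −0.29.

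The other cytosolic members did not pass the test in any comparison. Hsp90aa1, the inducible HSP90 gene, ranged over 3.55 to 3.92 in naive cells, 3.97 to 4.51 in culture, 3.87 to 4.44 in transferred cells and 3.64 to 4.10 in the immunised group. Cultured arrays did not overlap with naive ones, and the difference was 0.49 with a 95% interval from 0.015 to 0.96 (adjusted p = 0.0931). The order of means was cultured, transferred, immunised and naive, and neighbours overlapped. Hsph1, the exchange factor, gave 1.85, 2.04 and 2.25 in naive cells, 0.96, 1.74 and 2.96 in culture, 1.86, 1.55 and 2.96 in transferred cells and 1.64, 2.65 and 1.79 in the immunised group. All groups overlapped, and the largest mean difference was 0.24 with a 95% interval from −0.88 to 1.36. The 2 Hsph1 probes moved together over the arrays, at a correlation of 0.97.

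Other genes of the cytosolic HSP70 and HSP90 machinery formed a list of 25. In culture against naive cells 8 rose and 3 fell, where 19.7% of all genes were higher and 20.4% lower. From culture to transferred cells 4 rose and 5 fell, where 12.8% of all genes were higher and 15.5% lower. Between the CNS groups 0 were called by limma, and 1 was higher and 1 lower at an unadjusted p under 0.05, where 9.11% of all genes were higher and 10.9% lower. The medians of the list in these 3 comparisons were 0.09, −0.11 and −0.08, beside −0.08, −0.10 and −0.04 over all genes. Against naive cells 5 rose and 6 fell in transferred cells, where 21.2% of all genes were higher and 26.5% lower. In the immunised group 5 rose and 5 fell against naive cells, where 20.6% were higher and 27.8% lower. Hspa2, a further HSP70 gene, gave −3.36, −4.38 and −3.94 in naive cells and −0.66, −0.19 and 0.08 in transferred cells, a rise of 3.64 ± 0.34 (SE, adjusted p = 1.91e-05). In the immunised group it rose by 3.56 against naive cells, and in culture by 2.32. Its 3 naive arrays were the lowest of the 12. Bag3, an HSP70 cochaperone gene and known heat shock target, rose by 2.06 in transferred and 1.92 in immunised cells against naive ones. Its levels were −0.42, −0.87 and −0.51 in naive cells and already 0.23, 0.72 and 0.73 in culture. The J-domain gene Dnajb2 fell by 1.31 log2 in immunised against naive cells (adjusted p = 0.00209). Bag2, which encodes an inhibitor of a ubiquitin ligase that works with HSP70, rose by 2.23 in culture and then fell by 2.43 log2 in transferred cells, and the J-domain gene Dnaja4 rose by 2.18 and fell by 1.39. Hspa1l, an HSP70 gene that neighbours Hspa1a, was well above background on all 3 transferred arrays and on no array of the other groups. It was at least 2.41-fold higher in transferred than in cultured cells. It was tested only because of those 3 arrays, so the filter on dim probes itself favoured a rise in that group.

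Heat shock factor genes were measured as mRNA only. Hsf1, the factor that drives the heat shock response, gave 1.75, 1.85 and 1.78 in naive cells, −0.19, −0.53 and 0.28 in culture, 0.87, 0.81 and 1.09 in transferred cells and 0.81, 0.97 and 0.66 in the immunised group. Naive cells were highest and cultured cells lowest, with no overlap. Hsf1 fell by 1.94 log2 in culture (adjusted p = 4.79e-05) and rose by 1.07 from culture to transferred cells (adjusted p = 0.00334). Hsf2, a related factor, rose by 0.81 in culture and fell by 0.76 log2 in transferred cells. Of the 4 genes of this list 1 rose and 1 fell in each of these comparisons. Over all genes 19.7% were higher and 20.4% lower in culture against naive cells, and 12.8% and 15.5% from culture to transferred cells.

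Hspa5, the ER chaperone BiP, was high on all arrays. Its levels were 5.64, 4.62 and 4.95 in naive cells, 4.92, 5.42 and 5.84 in culture, 5.56, 5.60 and 6.73 in transferred cells and 5.34, 5.74 and 5.81 in the immunised group. Naive replicate 1 overlapped with every other group and transfer replicate 3 was the highest. Transferred cells differed from naive cells by 0.90 ± 0.37 (SE, 95% interval 0.069 to 1.72, adjusted p = 0.0711), and the difference was called without naive replicate 1, at 1.18 (adjusted p = 0.034). The order of means was transferred, immunised, cultured and naive, with overlap between neighbours.

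Other genes of ER folding and stress formed a list of 19, compared here with naive cells. In culture 6 rose and 1 fell, where 19.7% of all genes were higher and 20.4% lower. In transferred cells 8 rose and 1 fell, where 21.2% were higher and 26.5% lower. In the immunised group 4 rose and 1 fell, where 20.6% were higher and 27.8% lower. The medians of the list were 0.45, 0.64 and 0.40, against −0.08, −0.12 and −0.19 over all genes. These 3 comparisons share the naive arrays. Sdf2l1, an ER chaperone partner, gave −0.46, −0.61 and −0.37 in naive cells, 1.23, 1.26 and 1.08 in culture, 0.96, 1.17 and 1.97 in transferred cells and 0.97, 0.88 and 1.40 in the immunised group. Each naive array was below all others. Xbp1, which encodes a transcription factor of the unfolded protein response, rose by 1.79 in culture, 1.58 in transferred cells and 1.39 in the immunised group. From culture to transferred cells 1 of the 19 rose and 0 fell, where 12.8% of all genes were higher and 15.5% lower. It was Herpud1, which acts in ER-associated degradation, by 0.92 (adjusted p = 0.00888). Herpud1 was also higher in the immunised group than in culture, by 0.68 (adjusted p = 0.0319).

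The mitochondrial chaperonin pair, Hspd1 and its lid Hspe1, gave similar profiles. Hspd1 levels were 3.61, 3.58 and 3.60 in naive cells, 3.83, 3.33 and 4.07 in culture, 3.73, 4.07 and 4.24 in transferred cells and 3.22, 3.51 and 3.40 in the immunised group (mm9 chr1:55134697-55134756, minus strand). Hspe1 levels were 4.26, 3.97 and 3.93 in naive cells, 4.05, 3.71 and 5.01 in culture, 4.27, 4.48 and 4.56 in transferred cells and 3.64, 3.88 and 3.87 in the immunised group (mm9 chr1:55148026-55148085, plus strand). For both genes the immunised group lay below the naive and the transferred cells without overlap, and cultured replicates 2 and 3 were far apart. The transferred cells lay above the naive ones without overlap, but for Hspe1 the nearest arrays were at 4.27 and 4.26. Between the CNS groups 33.8% of all genes had arrays without overlap. That share was not worked out for the comparisons with naive cells. Over the 12 arrays the pair correlated at Pearson's r = 0.88 and Spearman's rho = 0.97, and at r = 0.90 without the 2 arrays farthest from the Hspd1 median. The points share arrays, slides and scaling. The 3 Hspe1 probes correlated with each other at 0.985 to 0.997.

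None of these differences of Hspd1 and Hspe1 passed the test. Transferred cells differed from naive cells by 0.42 for Hspd1 (adjusted p = 0.127) and by 0.39 for Hspe1 (adjusted p = 0.292). The immunised group differed from naive cells by −0.22 for Hspd1 (adjusted p = 0.399) and by −0.25 for Hspe1 (adjusted p = 0.488). Between the immunised and the transferred group, Hspd1 differed by −0.64 ± 0.21 (SE, 95% interval −1.10 to −0.18, adjusted p = 0.124), and within slides by −0.51 to −0.85. Hspe1 differed by −0.64 ± 0.28 (95% interval −1.27 to −0.009, adjusted p = 0.243), and within slides by −0.60 to −0.69. Without culture replicate 3, whose spread enters the fit, the Hspe1 difference was called (adjusted p = 0.0459), as was a rise of 0.56 from culture to transferred cells (adjusted p = 0.0434). Without culture replicate 2, Hspd1 was called lower in the immunised group than in culture, by −0.58 (adjusted p = 0.0458). Hspa9, the mitochondrial HSP70 gene, had the same order of CNS groups and did pass. It gave 3.12, 3.28 and 3.93 in transferred cells and 2.19, 2.34 and 2.37 in the immunised group, without overlap, and fell by 1.14 log2 (SE 0.25, adjusted p = 0.0358). It was the only gene called of 11 other mitochondrial chaperones and proteases in that comparison, where 1.84% of all genes were higher and 1.37% lower. Against naive cells it rose by 0.88 in transferred cells, where the protease gene Htra2 rose by 0.92 and Clpp fell by 0.56 log2.

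Cell type markers also differed between the CNS groups. Of 11 neutrophil markers 5 were higher in the immunised group, where 1.84% of all genes were higher and 1.37% lower. The summed level of the 11 was 469 to 598 in that group against 6.43 to 177 in transferred cells. Retnlg, Cxcr2, Mmp8, Mmp9 and Ltf were below background on all naive arrays. Of 4 tested B cell markers 2 were higher, 1 of 8 T cell core genes was higher, and 1 of 16 macrophage markers was lower. Their part in the values of Hspd1, Hspe1 and Hspa9 was not tested.

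**Figure D4:**
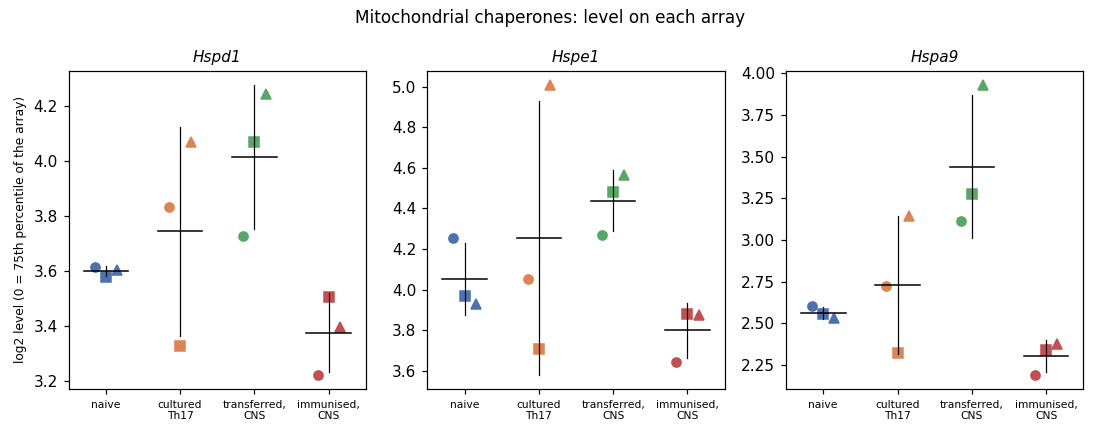
Log2 level (0 is the 75th percentile of the array) of 3 mitochondrial chaperone genes by group, with circles, squares and triangles for replicates 1, 2 and 3, the mean as a horizontal and ±1 SD as a vertical line. In all 3 panels the arrays of the immunised group lie below those of the transferred cells, and Hspa9 is the one of the 3 that passed the test, at −1.14.

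Of the 9 tested members, 0 to 3 were called in each comparison. In culture against naive cells 0 rose and 1 fell, where 19.7% of all genes were higher and 20.4% lower, and 1 was higher at an unadjusted limma p under 0.05, where 23.2% of all genes were. From culture to transferred cells 2 rose and 0 fell, where 12.8% were higher and 15.5% lower. Between the immunised and the transferred group 0 were called in either direction, against 1.84% higher and 1.37% lower, while 2 were lower at an unadjusted limma p under 0.05 (10.9% of all genes) and 3 had arrays without overlap (33.8% of all genes). Against naive cells, 2 rose and 1 fell in transferred cells (background 21.2% and 26.5%) and 1 rose and 0 fell in the immunised group (20.6% and 27.8%). Against culture, 1 rose and 0 fell in the immunised group (13.7% and 17.8%). The medians of the members were 0.15, 0.24, −0.29, 0.39, 0.01 and 0.10 in this order of comparisons, beside −0.08, −0.10, −0.04, −0.12, −0.19 and −0.17 over all genes. The results above are those of single genes.

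**Figure D5:**
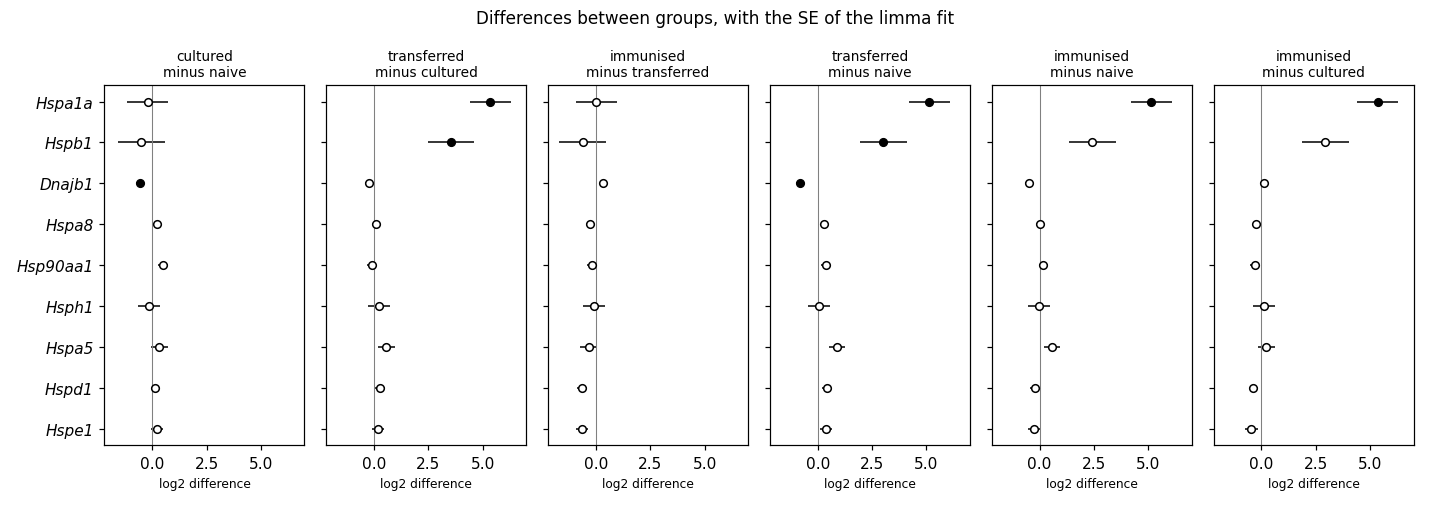
Log2 difference between 2 groups (horizontal axis) of the 9 tested chaperone genes in the 6 comparisons, with the SE of the limma fit as bars and filled symbols where the adjusted p was under 0.05. Hspa1a is near 5 in all 4 comparisons of a CNS group with naive or cultured cells, while most other members lie within 1 of 0.

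Members were left out of the search for the tested genes whose levels followed each member most closely over the 12 arrays. Between members, Pearson's r ran from −0.68 (Hspa8 and Dnajb1) to 0.93 (Hspa1a and Hspb1). Outside the members, the closest to Hspa1a were AW413774, the unnamed probe A_55_P1962688 and 4930447I22Rik, at Pearson's r of 0.98, 0.97 and 0.96. A_55_P1962688 was also among the 3 closest to Hspb1, at 0.93, with ENSMUST00000072180 and Olfr1252. Dnajb1 was followed by Mcm3ap (0.97), Lpin3 (0.96) and the T cell transcription factor gene Bcl11b (0.95). Hsp90aa1 was followed by Ube2s (0.94), Pdap1 (0.93) and the nuclear transport GTPase gene Ran (0.92). Hspa5 was followed by the HSP90 cochaperone gene Ptges3 (0.90), Baiap2 (0.90) and Tceal9 (0.87). For Hspd1 they were AV310571 (0.99), Set (0.94) and NAP103766-1 (0.94), and for Hspe1 Slc30a2 (0.96), Mcrip2 (0.96) and A_55_P2015666 (0.96). For Hspa8 they were Zfp628 (0.95), Ltbp3 (0.91) and Trib3 (0.90), and for Hsph1 Wnt11 (0.92), Bsdc1 (0.87) and Prkab2 (0.84). The values of these other genes are the highest among all tested genes that are not members, over few arrays that share slides and scaling.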

How the data were processed

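Total RNA, extracted with NucleoSpin RNA II and Cy3-labelled with the LIQA kit per the labels' protocols, was hybridised to 12 single-colour arrays. Each spot's intensity values (processed, mean and local background signals) were produced by the authors with Agilent Feature Extraction 10.7.3.1, protocol GE1_107_Sep09, per the file headers; no normalization between arrays is recorded there. The deposited value table of the series, also intensity, has no stated normalization and served as an alternative. Coordinates of probes follow the mm9 assembly named in the headers.

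Outlier spots (120 to 180 of 43020 per array) were left out, repeated spots averaged, and 39405 probes kept. Array probes were named by RefSeq accession (27223), symbol (3573), synonym (565) or the file's name (8044). Log2 processed signals were taken relative to the 75th percentile of all non-control probes of the array, which was at 658 to 940. A gene was represented by its brightest probe and needed 1 or more groups with all 3 arrays well above background, and all 9 members with a probe were kept. Hspa1a met this filter only through the 2 CNS groups. All 12 arrays entered 1 model with limma 3.58.1 in R 4.3.3, with 8 residual and 2.486 prior degrees of freedom, and two-sided p-values were adjusted by Benjamini-Hochberg over 18643 genes. SE is that of the fit, intervals are 95%, and SD is that of 3 arrays. P-values rest on the spread between samples within groups, pooled over all 4 groups and moderated by the prior. How many animals stand behind each sample is not given. The fit was tested on simulated data. Promoter windows come from RefSeq. Figures were drawn with matplotlib 3.10.9 under Python 3.11.15 (pandas 2.3.3 and numpy 2.4.6) and, in R, data.table (1.17.8).

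The members, gene lists, motifs and tests were chosen with earlier results of these data known. Named genes are the members, up to 3 called genes per pathway list and comparison with the largest change, and the 3 tested genes outside the members closest to each member. The Hsf1 and Hspa9 profiles by array and the marker sums were added beside these. Replicate number also marks the slide, but samples of 1 number did not deviate together (18 pairs, correlations of −0.20 to 0.20), so slide was not in the model. Alternatives were the slide as a block, 4 other scalings or backgrounds, 2 other filters, 2 other probe choices, another prior, fewer arrays, stricter thresholds and leaving out each array.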

Additional observations from a re-analysis of the deposited data

How the results depend on the processing

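Of 54 differences (9 members in 6 comparisons), 43 stayed on their side of the threshold under every alternative fit at an adjusted p under 0.05. Over 1230 values 20 lost a call, 23 gained one and 0 reversed a called direction. The stricter thresholds are not among these values. Among them, the 4 Hspa1a calls and the fall of Dnajb1 in transferred against naive cells held wherever the gene was tested. That Dnajb1 fall, at −0.82 log2, did not reach the 2-fold minimum of a stricter alternative. Counts of members called moved as follows. In culture against naive cells the 1 call became 0 under median scaling, with no filter on dim probes, with only the compared arrays, at an adjusted p under 0.01 and with a 2-fold minimum. From culture to transferred cells the 2 calls became 1 with no filter and at an adjusted p under 0.01, and 0 where probes had to be above background on all arrays, which left 7 members and not Hspa1a or Hspb1. For the same reason the 3 calls against naive cells in transferred cells became 1 and the 1 call of the immunised group against culture became 0. The 3 calls in transferred against naive cells also became 2 by the loss of Hspb1 with no filter, with only the compared arrays and at an adjusted p under 0.01. With a 2-fold minimum they became 2 by the loss of Dnajb1. In the immunised group against naive cells 1 became 2 with normexp, quantile normalization, series matrix values, the most variable probe or a trended robust prior. Against culture 1 became 2 with normexp, median scaling or only the compared arrays. Median scaling moved the median of all genes by 0.11 log2 in culture against naive cells and by −0.11 from culture to transferred cells.

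With the slide as a replicate block, the immunised group had 3 calls against naive cells (Hspb1, adjusted p = 0.0395, and Dnajb1, adjusted p = 0.0267, joined) and 2 against culture (Hspb1, adjusted p = 0.0283), and no other member's call changed. Samples of 1 number share a slide, but only 4 of 18 pairs had correlated deviations over 0.1, and 5 of 12 arrays correlated best with their own number. Leaving out each array gave 0 to 1 calls in culture against naive cells, 1 to 3 from culture to transferred cells, 0 to 1 between the CNS groups, 2 to 3 in transferred and 1 to 3 in immunised against naive cells, and 1 to 2 in immunised cells against culture. Where a group then kept 2 arrays, the spread came from all groups.

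Signal over background limits Hspa1a and Hspb1 in naive and cultured cells, where arrays near −6 have no reliable order. The cause of the other changes was not tested.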

Other observations

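The cytosolic chaperonin and prefoldin fold and deliver actin and tubulin. Of 14 genes of the list 3 rose and 0 fell in culture against naive cells, where 19.7% of all genes were higher and 20.4% lower. They were the chaperonin subunit gene Tcp1, by 1.21 (adjusted p = 0.0466), and the prefoldin subunit genes Pfdn1, by 0.90 (adjusted p = 0.00506), and Pfdn4, by 0.56 (adjusted p = 0.0234). In the immunised group against culture 0 rose and 2 fell, where 13.7% of all genes were higher and 17.8% lower. Pfdn1 fell by 0.97 log2 and Pfdn4 by 0.61 log2.

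Of 8 other genes listed by symbol under small heat shock proteins, 4 could be tested. Cryab, the stress-inducible alpha B crystallin gene, rose by 1.14 from culture to transferred cells (adjusted p = 0.014) and by 1.49 and 1.32 in transferred and immunised cells against naive ones. Hspb11, which is in the list by its symbol only, fell by 1.19 log2 from culture to transferred cells (adjusted p = 0.00411), and by 1.09 log2 and 0.86 log2 in transferred and immunised cells against naive ones. Cryaa, the alpha A crystallin gene, was not well above background on any transferred array, and was at least 1.59-fold lower there than in culture (adjusted p = 0.0222) and at least 1.83-fold lower than in naive cells (adjusted p = 0.00513). Of these 3 groups only naive cells, where Cryaa was high, had all 3 arrays well above background, against 2 in culture. The filter on dim probes thus itself favoured a fall in transferred cells. Hspb6 rose by 0.72 in culture against naive cells (adjusted p = 0.0333), and fell by 0.73 log2 in the immunised group against culture (adjusted p = 0.0394), where Hspb11 fell by 0.96 log2 and Cryab rose by 0.97.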
